A study of Mus musculus with 7 samples.

Results

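Zymogenic chief cells are the digestive enzyme cells at the base of the gastric gland. In 7 plates of single mouse stomach cells they were chosen by transcripts measured in the same wells: those in which Gif, the transcript of gastric intrinsic factor, made up at least 0.2% of the unique molecular identifiers (UMIs, one for each counted transcript). A well also had to hold at least 1000 UMIs, less than 10% of the pit genes Tff1, Gkn1, Gkn2 and Muc5ac together, less than 0.5% of the parietal genes Atp4a and Atp4b, and less than 0.3% of the endocrine gene Chga. The rule gave 336 of 2235 kept wells, out of 2688 wells sorted. Of 371 wells that reached the Gif limit, 35 were turned away by the other limits, 31 of them over Chga and 6 over Atp4a and Atp4b. The lowest Gif share inside was 0.201% and the highest outside, among wells that met the other limits, was 0.197%. There were 53 chief wells between 0.2% and 0.3%, and 55 wells lay outside between 0.1% and 0.2%, so the boundary ran through a continuous range.

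The study profiled untreated wild-type C57BL/6 mice by SORT-seq, which sorts 1 living, DAPI-negative cell into each well and counts its transcripts by CEL-seq2. Gland epithelium from the gastric corpus filled 4 plates and that from the pylorus, the outlet region, filled 3. The labels give no age and do not say which plates share an animal, so every p-value measures the spread between plates, which may be technical. Each plate had 384 wells. No kept well repeated the values of the same position on another plate.

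In mammals, chief cells make pepsinogen and other enzyme precursors in a large rough endoplasmic reticulum (ER), store them in zymogen granules and release them on neural and hormonal signals. In the corpus they arise largely from mucous neck cells, which make the gland mucin Muc6 and A4gnt, the enzyme that caps its sugar chains. The transcription factor Bhlha15, also called Mist1, sets up the secretory architecture of the mature cell. In the mouse, intrinsic factor is a chief cell product.

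The library labelled corpus replicate 1 held 3340 UMIs of Gast, the hormone of antral G cells and a defining transcript of the pylorus, in its kept wells, 37 of them in chief wells. The other 6 libraries, including the 3 labelled pylorus, held 0, which allows up to 0.316 to 1.15 CPM (UMIs per 1000000 UMIs, from 3 counts). The Gast result goes against the region labels, and regional directions below follow the labels as deposited. Plates held 2646492 to 9511078 UMIs, and spike-in RNA took 4.27% of corpus replicate 1, 6.55% of pylorus replicate 1 and 0.256% to 0.426% of the remaining plates. Corpus replicates 1 and 2 and pylorus replicate 1 also differed from the other 4 plates within chief wells, with Gif at 11212, 11978 and 12064 CPM against 5504 to 6569 CPM. The 4 remaining plates, corpus replicates 3 and 4 and pylorus replicates 2 and 3, are called the 4 similar plates, a grouping taken from the results and not from the labels.

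Chief wells made up 14.4%, 25.8%, 11.1% and 10.5% of the kept wells of corpus replicates 1 to 4 and 20.8%, 13.2% and 13.3% of those of pylorus replicates 1 to 3. The shares of the regions overlapped. Their means were 15.4% ± 7.1 (SD, n = 4) and 15.8% ± 4.4 (SD, n = 3), a difference of 0.32 percentage points (exact permutation test of the absolute difference over 35 splits of the plates, two-sided, p = 0.971). The smallest p these plates can give is 0.0286. These are shares of wells that survived dissociation and sorting. The median chief well held 6496 and 13554 UMIs in corpus replicate 1 and pylorus replicate 1, and 26438 to 29778 in the other 5 plates.

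Summed over the wells of a plate, all 7 chief markers were higher in chief wells than in the other kept wells of every plate. The rule chose the wells on transcripts of the same cells, so these values are a description and were not tested. Gif, which set the rule, had 8395 ± 3170 CPM (SD, n = 7 plates) in chief wells and 361 ± 440 CPM in the other wells. Chia, an acidic chitinase, had 33216 ± 10679 CPM against 2396 ± 2934 CPM. Clps, the colipase that anchors pancreatic lipase to fat droplets, had 101002 ± 35796 CPM against 11702 ± 7849 CPM. Pnliprp2, a lipase of milk fat and galactolipids, had 1104 ± 343 CPM against 58.4 ± 50.4 CPM. Bhlha15 had 140 ± 47.4 CPM against 13.4 ± 8.2 CPM, and the secretory disulfide isomerase Pdia2 had 1593 ± 1075 CPM against 151 ± 164 CPM. Pgc, pepsinogen C, stood out least: 146975 ± 24361 CPM against 66496 ± 21290 CPM. Sums hide the single wells of corpus replicate 1. Its median chief well had 398 CPM of Chia, against 2954 to 29649 CPM in the other plates. For Clps the median was 6545 against 92708 to 180399 CPM, and for Muc6 864 against 0 to 54.6 CPM. Its medians of Gif and Pgc lay within the range of the other plates.

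**Figure D1:**
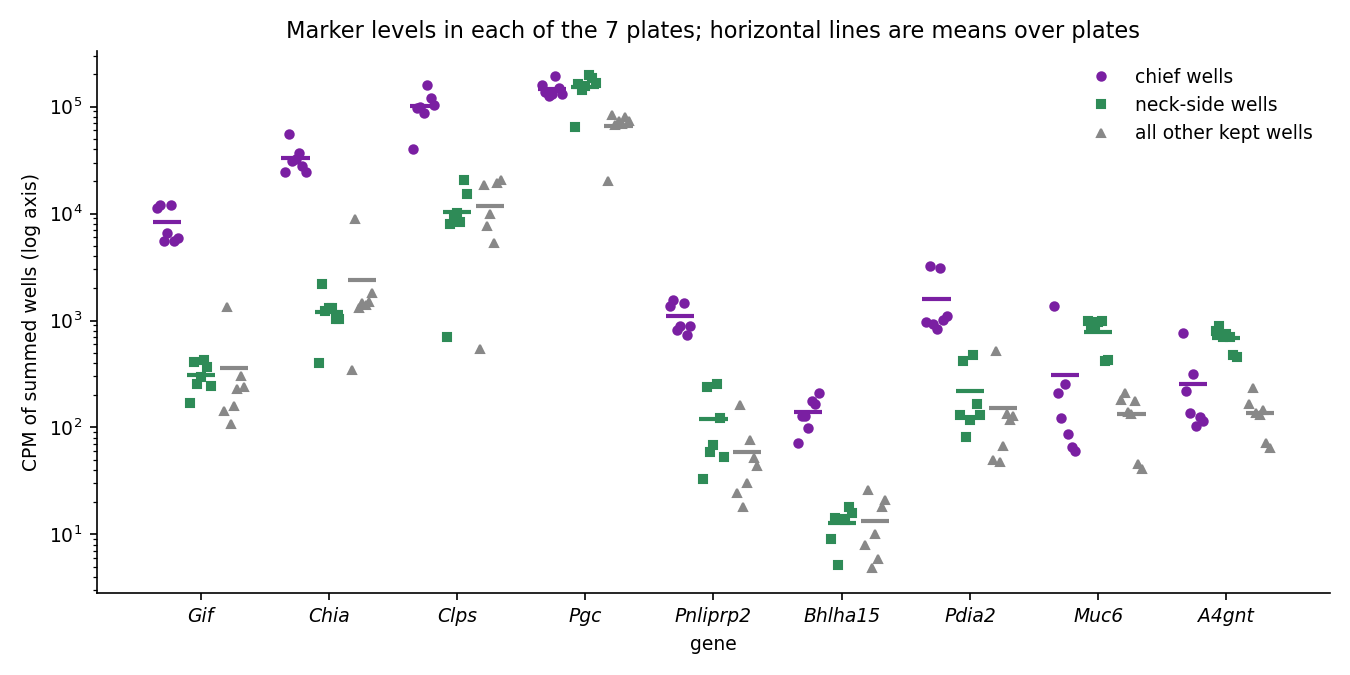
Levels of the 7 chief markers and of Muc6 and A4gnt in CPM on a log axis, summed over wells of a plate; each point is 1 plate, circles are chief wells, squares neck-side wells, triangles all kept wells that are not chief wells (neck-side wells included), and lines are means over the 7 plates. Chief wells lie above both other classes for Gif, Chia, Clps, Pnliprp2, Bhlha15 and Pdia2, whereas Pgc is similar in chief and neck-side wells and Muc6 and A4gnt are mostly highest in neck-side wells.

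Many of these transcripts are also found at a low level in cells that should lack them. With each well thinned to 5000 UMIs, Chia had a UMI in 98.4% of 314 chief wells and in 97.6% of 376 pit wells, so a share of positive wells does not separate them; the mean levels were 30309 and 1026 CPM. Bhlha15 had a UMI in 43.9% of chief wells (95% Wilson interval 38.6 to 49.5%) and 2.66% of pit wells (1.45 to 4.83%). It had one in 5.28% of neck-side and 11.1% of endocrine wells. Pdia2 had a UMI in 90.8% of chief, 10.9% of pit, 50.4% of neck-side and 21.5% of endocrine wells. Cckar, the receptor for cholecystokinin, had one in 83.8%, 11.2%, 38.6% and 52.1% in the same order. The median depth before thinning was 26194, 31714, 17878 and 13167 UMIs in these classes. Intervals cover counting error only.

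Neck-side wells are the closest class to compare: they met the same limits, had Gif under 0.2% and held at least 0.05% Muc6 and A4gnt together. Pgc had 153409 ± 42830 CPM there and was higher in chief wells in 1 of 7 plates. This comparison is limited by the UMIs. A 6-base UMI has 4096 sequences, and the highest count in any table was 4095. The median chief well held 4039 Pgc UMIs, 98.6% of that ceiling, against 2914 in the median neck-side well. There were 218 chief wells above 90% of the ceiling for Pgc, 130 for Clps, 86 for the phospholipase Pla2g1b and 17 for Chia. After correction for UMI collisions Pgc had 330363 ± 48225 CPM in chief wells and 254019 ± 85918 CPM in neck-side wells, higher in chief wells in 7 of 7 plates, a log2 ratio of 0.49 ± 0.53. The direction between these classes thus depends on that correction, which is steep so close to the ceiling.

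**Figure D2:**
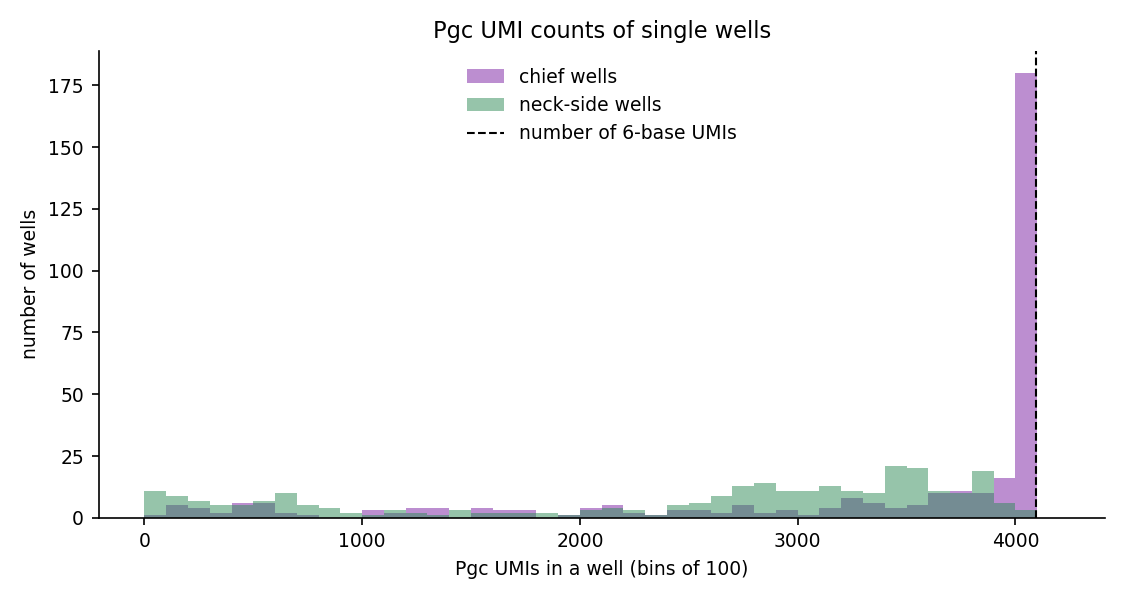
Number of chief wells and neck-side wells by their Pgc UMI count, in bins of 100 UMIs; the dashed line marks the 4096 sequences of a 6-base UMI. Most chief wells, with a median of 4039 UMIs, are piled against the line, while the neck-side wells, with a median of 2914, are spread below it.

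Digestive enzymes filled much of a chief cell's library. Pgc, Clps, Pla2g1b and Chia together took 25.9% of the chief well UMIs of corpus replicate 1 and 51.4% of those of pylorus replicate 1, with the other plates between. Because CPM are shares, every other gene is scaled down by this load: the median log2 ratio of chief over other wells was -0.58 over 9947 genes at 5 CPM or more, of which 366 (3.68%) were higher and 4489 (45.1%) lower in all 7 plates. Values below are to be read against that shift.

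Outside the rule and marker genes, the transcripts that most set chief wells apart, by mean log2 ratio among genes at 100 CPM or more, were of several kinds. Of 772 such genes, 120 (15.5%) were higher in every plate. Nupr1, a stress-inducible chromatin protein, had 1420 ± 599 CPM in chief wells, 155 ± 144 CPM in other wells and 36.9 ± 21 CPM in neck-side wells. Furin, the proprotein convertase of the Golgi, had 3766 ± 1862, 379 ± 318 and 327 ± 157 CPM in the same order. Tmed6, a cargo receptor of the early secretory pathway, had 946 ± 381 CPM against 81.2 ± 66.6 CPM in other wells. Sostdc1, a secreted BMP and Wnt antagonist, had 109 ± 58.3 CPM against 8.4 ± 10.8 CPM. Gpr30, now called Gper1, a membrane estrogen receptor, had 199 ± 57.7 CPM against 15.2 ± 10.7 CPM. Gm12888 at 380 ± 238 CPM and the ion transport regulator Fxyd6 at 219 ± 73.1 CPM completed this set together with the trypsinogens Try10 at 152 ± 96.7 and Try4 at 150 ± 168 CPM. Trypsinogen genes are near-identical copies, so reads may be split among them. In corpus replicate 1 both trypsinogens stood at 3.12 CPM, below the limit of 9.37 CPM that 3 counts give in its chief wells.

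The trypsinogens raise the question of pancreatic transcripts, since Clps, Pla2g1b, Pnliprp2 and Try4 are all abundant in pancreas. Of the 10 listed acinar markers 8 were in the tables, and their summed level was 6.25 to 158 CPM in the chief wells of the corpus plates and 90.9 to 538 CPM in those of the pylorus plates, of which Try4 itself was up to 519 CPM. The other wells had 16 to 276 CPM and 49.3 to 63.4 CPM, so in the pylorus plates the chief wells were above them. Cela3b and Cpa1, both defining acinar enzymes, had 0 UMIs in all chief wells. Pnlip, pancreatic lipase, had only 6.2 ± 6.84 CPM in chief wells but was higher there than in the other wells in all 7 plates.

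The ER list holds the machinery that brings secretory proteins into the ER and folds them there. All 35 members reached 5 CPM; 16 were higher in chief wells in all 7 plates and 1, Ero1l, was lower, where 3.68% of all genes were higher and 45.1% lower, with a median log2 ratio of 0.48 against -0.58 over all genes. Pdia2, 1 of the 7 chief markers, is among the 16. Herpud1, a component of ER-associated degradation, had 472 ± 65.6 CPM in chief and 155 ± 32.2 CPM in other wells. Ssr4, a subunit of the translocon-associated complex, had 435 ± 90.6 against 186 ± 33.8 CPM, and the signal peptidase subunit Spcs3 187 ± 46.9 against 105 ± 31 CPM. The chaperone Hspa5, also called BiP, had 1319 ± 292 against 794 ± 234 CPM. In neck-side wells Hspa5 had 1074 ± 115 CPM, Herpud1 288 ± 77.9 CPM, Ssr4 191 ± 46.8 CPM and Spcs3 90 ± 16.8 CPM. Xbp1, the transcription factor of the unfolded protein response, had 1254 ± 175 against 569 ± 182 CPM and was higher in all 7 plates, with 911 ± 200 CPM in neck-side wells. Of 17 measured granule and maturation genes only Xbp1, Bhlha15 and 5330417C22Rik were higher in all plates, while 6 were lower in all, a smaller share than the 45.1% of all genes, among them the granule SNARE Vamp8 at 69 ± 4.71 against 109 ± 25.1 CPM and both Rab27 genes. Rab3d, a zymogen granule GTPase, had 193 ± 32.7 against 179 ± 20.2 CPM and was higher in 5 of 7 plates.

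Several ER genes carry a known promoter element. The ER stress response element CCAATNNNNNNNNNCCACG binds the factor NF-Y at one end and ATF6 or XBP1 at the other. It was looked for on both strands in the 250 bases before the gene start, in the RefSeq promoter table for GRCm38.p6, which matched 24 of the 35 listed genes. The element was present in 7 of these (29.2%) and in 35 of all 27025 gene symbols of the table (0.13%). Elements on 1 chromosome were left out of the count for the listed genes but not of that for all symbols. A listed gene there counts as without the element. The elements of the 3 genes that were higher in chief wells of all plates, and of 1 gene that was not, are shown 5′ to 3′ on their own strand, with the fixed bases in capitals:
Hspa5: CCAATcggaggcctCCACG
Dnajc3: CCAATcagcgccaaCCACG
Creld2: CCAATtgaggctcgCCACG
Canx: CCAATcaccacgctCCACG
The Hspa5 element is at chr2:34772025-34772043, 47 to 65 bases before the start, that of Dnajc3 at chr14:118937827-118937845, 87 to 105 bases before it, and that of Creld2 at chr15:88819520-88819538, 108 to 126 bases before it on the opposite strand, all 3 genes being on the plus strand. Canx, on the minus strand, has its element at chr11:50325800-50325818, 127 to 145 bases before the start. Dnajc3, a co-chaperone of Hspa5, had 400 ± 121 CPM in chief and 196 ± 38.7 CPM in other wells, and the ER protein Creld2 137 ± 41.7 against 58.4 ± 13.6 CPM. The lectin chaperone Canx had 238 ± 24.5 against 332 ± 81.1 CPM and was higher in chief wells in 1 of 7 plates. As counted here, carrying the element did not set apart the genes that were higher: 3 of the 7 with it were higher in all plates, and 9 of the 17 without it. The median log2 ratios were 0.49 and 0.42. The element is a match of letters and not a measured site, and the search was chosen after the expression values were seen. Before it, E-box letters had been searched in the promoters of 27 named chief and region genes, of which 19 are in the table. The E-box CATATG was in 1 of them, Bpifb1 (5.26%, against 3.98% of all symbols). The E-box CAGCTG was in 1, Nupr1 (5.26%, against 14.7%). The E-box CACGTG was in 3, Cbs, Nupr1 and Pdia2 (15.8%, against 6.86%).

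Some genes of the gland base and of secretory control were also higher in chief wells of every plate, although at low levels. Lgr5, a Wnt-amplifying receptor that also marks a subset of chief cells, had 44.3 ± 47.1 CPM against 4.68 ± 2.34 CPM, with 150 CPM in corpus replicate 1. Tnfrsf19, also called Troy, had 19.4 ± 6.24 against 2.99 ± 2.34 CPM. The Wnt targets Axin2 and Rnf43 had 7.37 ± 5.43 against 2.78 ± 2.05 CPM and 16.7 ± 7.98 against 7.9 ± 2.63 CPM. In all, 4 of 12 measured genes of this list were higher and 0 lower in all plates. Over all genes 3.68% were higher and 45.1% lower in this way. Of 7 measured secretagogue receptors, Cckar was the 1 that was higher in all plates, at 633 ± 205 against 94.1 ± 64.8 CPM. Cckbr, the gastrin receptor of parietal and enterochromaffin-like cells, and Egfr were lower in all plates, a smaller share than the 45.1% of all genes. Cckbr had 4.74 ± 3.7 against 33.4 ± 47.4 CPM. Cel, carboxyl ester lipase, was the digestive enzyme lower in chief wells of all plates, at 15.9 ± 17.5 against 340 ± 644 CPM. Lipf had 0 UMIs in chief wells.

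Transcripts of other cell types were also present in chief wells. The 8 pit genes summed to 6249 to 42269 CPM in chief wells of corpus plates and 17268 to 40482 CPM in those of pylorus plates, against 23323 to 108853 CPM in the other wells. That list includes Psca, which was itself higher in chief wells of all 7 plates, at 4841 ± 3348 against 1664 ± 430 CPM in other wells and 232 ± 53.8 CPM in neck-side wells. The 10 proliferation genes summed to 63.3 to 306 CPM in chief wells against 403 to 2055 CPM elsewhere. The 6 stromal genes summed to 1.48 to 59.3 CPM in corpus and 2.74 to 27.4 CPM in pylorus chief wells, against at most 37.5 and 18.4 CPM in the other wells. The 2 squamous forestomach genes in the tables were at 0 in chief wells. The part of other cells' transcripts in the results below was not tested.

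Muc6 and A4gnt, which the rule did not use, divided the chief wells. At 5000 UMIs, A4gnt had a UMI in 42.7% of 314 chief wells, 93.9% of 246 neck-side wells and 14.1% of 376 pit wells, and Muc6 in 33.8%, 89.8% and 7.45%, so the chief share was above the level in cells that should lack them. Counted together they gave 154 chief wells with 0 UMIs, 78 with 1 or 2 and 82 with 3 or more; 22 chief wells under 5000 UMIs were left out, all in corpus replicate 1 and pylorus replicate 1. In 6 plates, all but pylorus replicate 1, at least 5 wells of both end classes could be compared, 79 and 122 wells in all. Gif itself had 7043 ± 2032 CPM (SD, n = 6) in wells with 3 or more UMIs and 7959 ± 3956 CPM in those with 0, higher in 3 plates and lower in 3.

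Enzymes differed along this scale gene by gene. Chia had 2401 ± 2717 CPM in wells with 3 or more Muc6 and A4gnt UMIs, 35748 ± 18977 CPM with 1 or 2 and 48446 ± 25990 CPM with 0. Pla2g1b had 20060 ± 8159, 83072 ± 25650 and 114736 ± 11676 CPM in the same order, and Clps had 38275 ± 15934, 95078 ± 25329 and 124882 ± 14917 CPM. All 3 were lower with the mucous transcripts in 6 of 6 plates. Bhlha15, at 62.8 ± 46.2 against 206 ± 83.9 CPM, Pdia2, at 361 ± 144 against 1630 ± 1060 CPM, and Nupr1, at 299 ± 188 against 1815 ± 624 CPM, went the same way in all 6 plates. Pgc had 168040 ± 24465 against 145756 ± 24824 CPM and was higher in 4 of 6 plates, under the UMI ceiling described above.

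The genes with the largest ratios on the mucous side included products of neck cells. Gkn3, a gastrokine of neck cells, had 7387 ± 8983 CPM with 3 or more UMIs and 149 ± 242 CPM with 0, led by 25540 CPM in corpus replicate 1 against 1580 to 4925 CPM in the other 5 plates. Pga5, pepsinogen 5, had 591 ± 666 against 25.5 ± 46.8 CPM. Pigr, the immunoglobulin transporter of mucosae, had 380 ± 341 against 18.4 ± 29.1 CPM, and Ern2, an ER stress sensor of mucous cells, 347 ± 126 against 23.5 ± 22.1 CPM. Etv5, F5 and Chad completed this side of the named genes. Smoc2, a matrix protein that marks Lgr5-positive base cells, had 120 ± 97.5 against 0.98 ± 2.4 CPM and was at 3.53 ± 3.08 CPM in neck-side wells. Gkn3, Pga5, Pigr and Ern2 had 2701, 571, 271 and 353 CPM in neck-side wells.

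On the other side, Try4 had 0 UMIs in wells with 3 or more and 105 ± 44.6 CPM in wells with 0. Gm12888 had 21.7 ± 35.8 against 432 ± 191 CPM, Sostdc1 10.7 ± 18.8 against 138 ± 46.6 CPM and Psca 353 ± 330 against 5476 ± 3445 CPM. Necab1, Cyp4v3 and Tmem64 were lower with the mucous transcripts as well. Some classes were small: 5 wells of corpus replicate 1 had 0 Muc6 and A4gnt UMIs, with 40 CPM of Try4. In corpus replicate 3, 6 wells had 3 or more. Directions of low genes on both sides of the scale thus rest on few UMIs in such plates. Of 1123 genes at 100 CPM or more, 292 (26%) were higher and 51 (4.54%) lower in all 6 plates, and the median log2 ratio was 0.64 over 5487 genes at 20 CPM or more, so most genes had a higher CPM in the wells with fewer enzyme transcripts. At that level 596 genes (10.9%) were higher and 75 (1.37%) lower in all 6 plates, and the lists are to be read against these shares. Of the neck mucous list 5 of 10 measured genes were higher in all plates, with a median log2 ratio of 3.73; Muc6 and A4gnt, which set the classes, are 2 of the 5. The ER list had 3 higher and 5 lower of 34, and a median of -0.03. Of 17 dissociation stress genes 8 were higher and 0 lower, with a median of 0.91. Without corpus replicate 1, 313 of 1097 genes were higher and 72 lower in all 5 remaining plates. The 16 named genes were chosen for 1 direction in all 6 plates, so their direction in these 5 was fixed beforehand. The classes come from 1 random draw of 5000 UMIs a well.

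**Figure D3:**
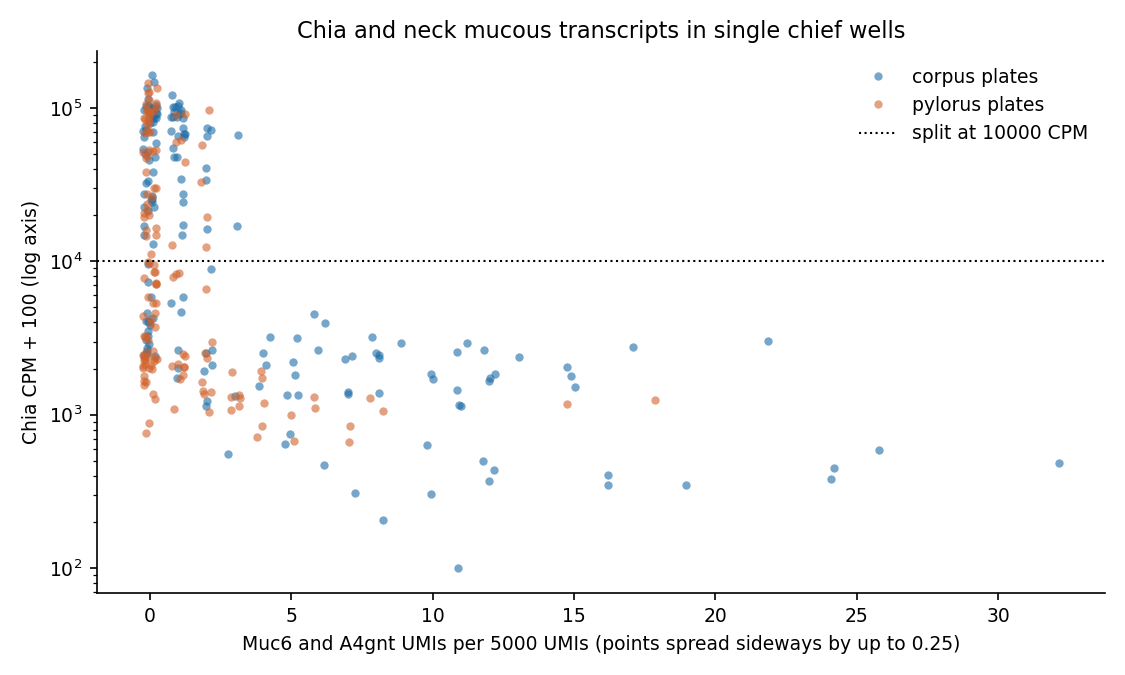
Chia level (CPM + 100, log axis) of each of 314 chief wells against its Muc6 and A4gnt UMIs at 5000 UMIs; blue points are wells of corpus plates, orange of pylorus plates, and the dotted line is the split at 10000 CPM. Of the 137 wells above the line 2 had 3 or more Muc6 and A4gnt UMIs, while wells with 0 lie both above and below it.

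Chia alone divided the wells further. A split at 10000 CPM, set after its values were seen, put 137 wells above and 177 below, and 41 of all 336 chief wells, before thinning, were between 5000 and 20000 CPM. Of the wells above, 91 had 0 Muc6 and A4gnt UMIs, 44 had 1 or 2 and 2 had 3 or more. Of those below, 63, 34 and 80 did. In 5 plates with at least 5 wells of both kinds, the wells without Muc6 and A4gnt UMIs could be compared by Chia, 79 above and 59 below the split, with median depths of 30030 and 27191 UMIs before thinning. They differed in Chia by construction, at 63983 ± 11034 against 3582 ± 1058 CPM (SD, n = 5), where endocrine wells had 3586 and pit wells 1026 CPM. Clps had 134732 ± 31303 against 136063 ± 31421 CPM, Pla2g1b 118853 ± 13880 against 117532 ± 12471 CPM, and intrinsic factor, Gif, 7995 ± 3969 against 7687 ± 3690 CPM, with log2 ratios of -0.02 ± 0.08, 0.01 ± 0.08 and 0.04 ± 0.26. Pgc had 147638 ± 32125 against 158743 ± 34584 CPM and was lower in 4 of 5 plates with Chia high. Pgc, Clps and Pla2g1b are near the UMI ceiling in many chief wells. Pnliprp2 had 940 ± 453 against 1469 ± 717 CPM and was lower in 4 of 5 plates with Chia high, and Furin had 4266 ± 1073 against 5823 ± 1048 CPM, lower in 5 of 5. Of 756 genes at 100 CPM or more, 17 (2.25%, Chia among them) were higher and 46 (6.08%) lower in all 5 plates. Besides Chia the largest ratios were those of Cyp4v3, at 192 ± 70.4 against 64.6 ± 76.9 CPM, and, in the other direction, the complement inhibitor Cfi, at 35.7 ± 35.2 against 119 ± 49.2 CPM. These lists have not been tested.

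The share of chief wells with neck mucous transcripts was compared between regions over plates. In the draw used, 80.8%, 55.6%, 55% and 68.6% of the chief wells of corpus replicates 1 to 4 had at least 1 Muc6 or A4gnt UMI at 5000 UMIs, and 27.3%, 29.2% and 55.1% of those of pylorus replicates 1 to 3. The last pylorus plate overlapped corpus replicate 3. The means were 65% ± 12.3 (SD, n = 4) and 37.2% ± 15.5 (SD, n = 3), a difference of -27.8 percentage points, pylorus minus corpus, that did not reach 0.05 (exact permutation test, two-sided, p = 0.0571, adjusted over the 2 shares compared 0.114).

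The result moved with the draw, and this value should be read with the average over all possible draws, which needs no random numbers and was computed after the draws had been compared. It was 90%, 51.1%, 52.5% and 68.9% in corpus and 34.6%, 38.8% and 40.4% in pylorus plates, so the regions did not overlap, with a difference of -27.7 points (exact permutation test, p = 0.0857). With every UMI of every chief well counted, 92.5% ± 6.12 of corpus and 74.8% ± 11.5 of pylorus chief wells were positive (exact permutation test, p = 0.0286, the smallest these plates allow, adjusted over the 2 shares 0.0571) with plates that differ in depth. Without corpus replicate 1, the library with Gast, the difference in the draw used was -22.5 points (exact permutation test, p = 0.2).

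**Figure D4:**
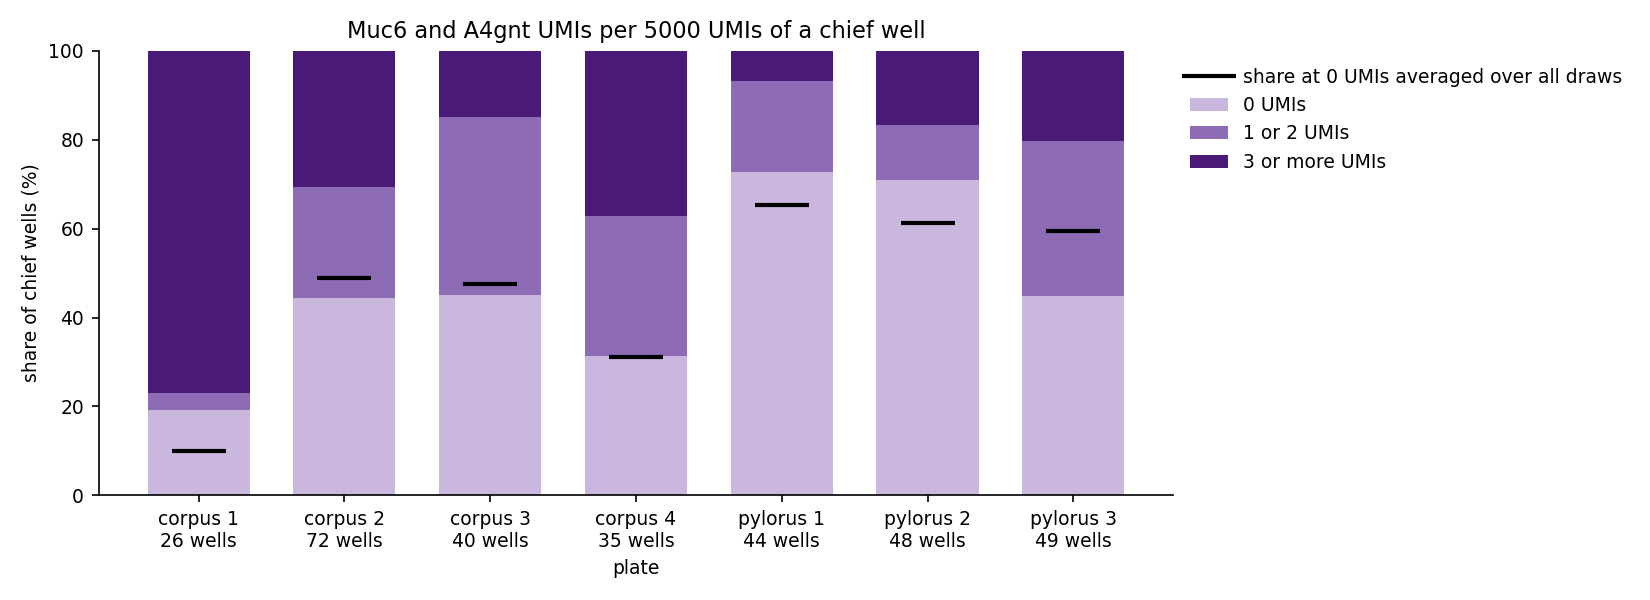
Share of chief wells of each plate, in percent, with 0, 1 or 2, and 3 or more Muc6 and A4gnt UMIs after thinning to 5000 UMIs; numbers under the bars are wells and black marks are the share at 0 averaged over all draws. Corpus replicate 1 has the fewest wells at 0, and the marks of the 3 pylorus plates lie above those of the 4 corpus plates.

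Between regions, no gene within chief wells passed. UMIs were summed over the chief wells of each plate and tested in limma with Benjamini-Hochberg adjustment; 0 of 7447 genes (0%) had an adjusted p under 0.05, and 234 (3.14%) had an unadjusted p under 0.05 (265 with voom weights, 0 of them passing adjustment). Levels in the region comparison are TMM-scaled CPM, which correct for the load of a few abundant transcripts and differ from the CPM above.

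Gif, whose share set the rule and is given as a description, had 8116, 11538, 6148 and 6588 CPM in corpus plates and 13825, 6195 and 5893 CPM in pylorus plates. The ranges overlapped. Chia had a log2 difference, pylorus over corpus, of -0.02 ± 0.49 (SE) and Pnliprp2 by 0.03 ± 0.31. Pgc and Clps had log2 differences of 0.38 ± 0.59 and 0.93 ± 0.64, and Pdia2 had 0.49 ± 0.55, or -0.06 without pylorus replicate 1. Bhlha15 had 52, 123, 143 and 100 CPM in corpus and 204, 184 and 209 CPM in pylorus plates. All 3 pylorus plates were above all corpus plates (log2 difference 1.01 ± 0.31, adjusted p = 0.9995, limma), as they were for 203 genes (2.73%) in this direction; 171 (2.30%) were apart in the other.

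The genes with the smallest p higher in the pylorus were Bpifb1, Cym, Pitx1, Cbs and Fes, and none passed. Bpifb1, a secreted protein of mucosal defence, had 74.6, 12.9, 40.9 and 21.2 CPM in the chief wells of corpus plates and 162, 402 and 635 CPM in those of pylorus plates. All pylorus plates lay above all corpus plates (log2 difference 3.42 ± 0.57, adjusted p = 0.302, limma). The other wells had 17.2 and 203 CPM on average, and the interaction had an adjusted p of 0.996 (limma). Neck-side wells had 15.6 to 58.3 CPM of Bpifb1 in corpus and 346, 530 and 1215 CPM in pylorus plates. In pylorus replicates 2 and 3, chief wells with 3 or more Muc6 and A4gnt UMIs had 2525 and 4020 CPM. Those with 0 had 141 and 245 CPM. Without chief wells at 0.05% Muc6 and A4gnt the log2 difference was 2.46. Pitx1, a homeobox factor, had 1.43 to 11.3 CPM in corpus and 14.1, 31.9 and 51.1 CPM in pylorus plates (adjusted p = 0.9995, limma). The other wells had 46.4 CPM in corpus replicate 1, the library with Gast, and 4.4 to 6.17 CPM in the remaining corpus plates. In the pylorus plates they had 27.1, 64.9 and 50.5 CPM, so the ranges overlapped.

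Cym, the milk-clotting protease chymosin, had 0 UMIs in all corpus chief wells, where 3 counts would be 1.48 to 9.37 CPM, and 8, 72 and 611 UMIs in pylorus replicates 1 to 3 (adjusted p = 0.302, limma). These came from few cells. Of the 72 UMIs in pylorus replicate 2, 70 came from 1 well, and of the 611 in replicate 3, 399 and 199 came from 2 wells. Outside chief wells 1 well of pylorus replicate 1 held 449 of that plate's 478 UMIs, and 1 corpus well held 12. Thus 3 wells held most of the Cym UMIs found in chief wells.

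The genes with the smallest p lower in the pylorus were Amotl1, Aqp4, Pik3r1, Itpr2 and Muc6. Amotl1, a junction protein of the angiomotin family, had 36.2, 67.2, 40.9 and 61.5 CPM in corpus and 15.7, 7.28 and 9.36 CPM in pylorus plates, with no overlap (log2 difference -2.07 ± 0.31, adjusted p = 0.302, limma). The other wells had 25.9 and 4.37 CPM on average. Muc6 had 988, 202, 137 and 257 CPM in corpus against 100, 72.8 and 60.5 CPM in pylorus plates, also apart (-1.90 ± 0.55), and A4gnt had 153 to 558 CPM in corpus and 116 to 141 CPM in pylorus plates (-1.13 ± 0.37, adjusted p = 0.9995 for both, limma). The other wells also had less in the pylorus on average, 167 and 87.8 CPM of Muc6 and 166 and 93.9 CPM of A4gnt. Those of pylorus replicate 1, at 177 CPM of Muc6 and 145 CPM of A4gnt, lay within the corpus range. Neck-side wells, chosen on these 2 transcripts, had 868 to 985 CPM of Muc6 in corpus plates. In pylorus plates they had 987, 419 and 427 CPM. Aqp4, a water channel of parietal cells, had 54.4 ± 24.1 against 15.9 ± 9.35 CPM. In the other wells Aqp4 had 3.79, 11.1, 142 and 81.6 CPM in corpus and 9.02, 17.1 and 11.4 CPM in pylorus plates, so the ranges overlapped. The regulatory subunit Pik3r1 had 151 ± 24.3 against 80.2 ± 14.9 CPM, and Itpr2, a calcium release channel, 37.1 ± 11.5 against 16.5 ± 2.14 CPM.

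**Figure D5:**
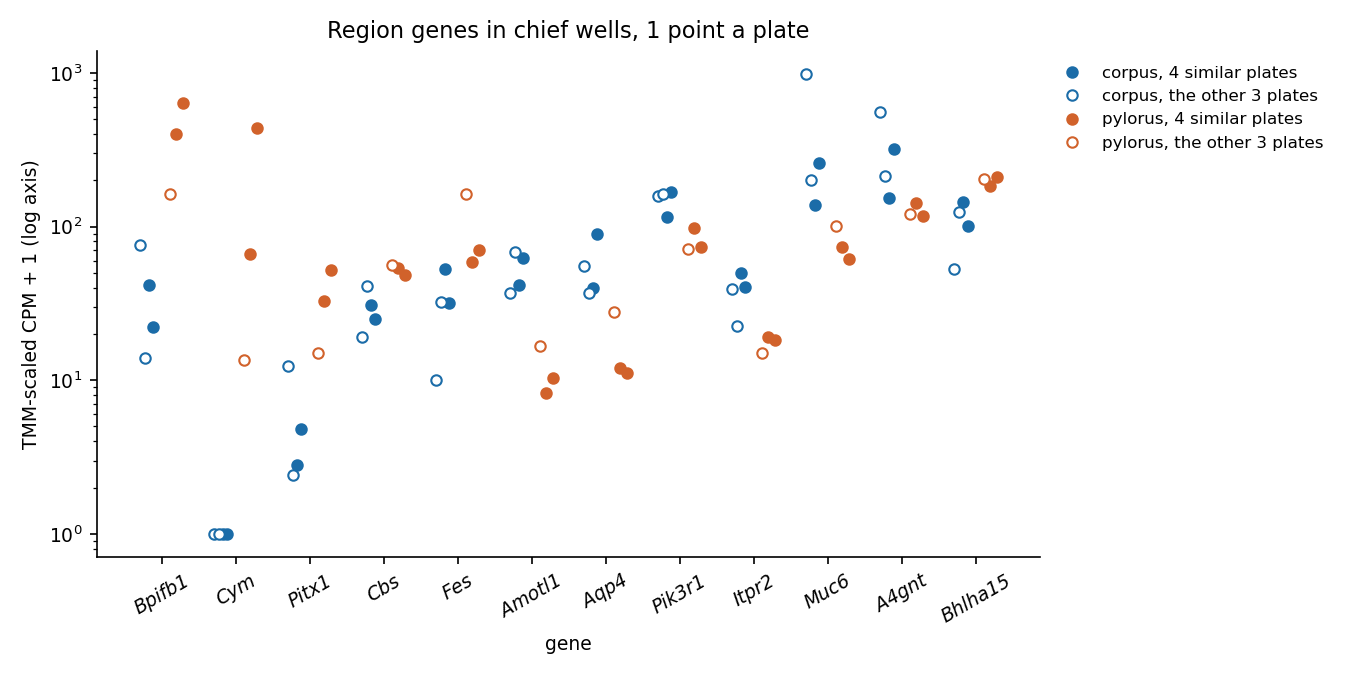
TMM-scaled CPM + 1 (log axis) in chief wells of the genes with the smallest region p and of A4gnt and Bhlha15; each point is 1 plate, blue corpus and orange pylorus, filled for the 4 similar plates. The regions do not overlap for any gene shown, and none passed the adjusted threshold over the 7 plates; Cym is at 0 in all corpus plates.

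Over the 7 plates 0 members of any list passed, and 2.73% of all genes were higher and 2.30% lower in the pylorus without overlap. Of 10 neck and gland mucous genes 2 were lower and 1 higher in pylorus plates without overlap, with a median log2 difference of -0.83 against 0.02 over all genes. Of 17 regional transcription factors 3, Irx2, Pitx1 and Sox2, were higher without overlap and 1 lower. Of 35 ER genes 2, Sec61b and Ssr3, were higher and 0 lower. Of 16 granule genes 1, Bhlha15, was higher, and of 5 measured mucosal defence genes Bpifb1 and Muc1 were.

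In the 4 similar plates alone, 38 of 7118 genes (0.534%) passed, 18 higher and 20 lower in the pylorus (limma). These p-values rest on 2 residual degrees of freedom and 22.6 borrowed from the other genes, and this subset was known from earlier results. Of the 38 genes, 37 were tested over all 7 plates, where 33 had the same direction and 18 an unadjusted p under 0.05. The 7 plates include the 4 that chose these genes, so this agreement is partly built in. Atp4a, Atp4b and Muc5ac, which the rule capped, are 3 of the 38, and their calls are no evidence. Bpifb1, Cym, Pitx1, Amotl1, Aqp4, Itpr2 and Muc6 were among the others. With 2 plates a region (SD, n = 2), Bpifb1 rose from 29.4 ± 13.4 to 490 ± 156 CPM (limma, adjusted p = 2.24e-11). Amotl1 fell from 48.5 ± 13.6 to 7.85 ± 1.4 CPM (adjusted p = 3.04e-05, limma).

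Further genes of the mucosal defence list passed in this subset, 3 of 5 in all. Pigr rose from 30.6 ± 0.43 to 109 ± 19.4 CPM and Wfdc2, an antimicrobial whey protein, from 13.9 ± 7.37 to 39.8 ± 0.46 CPM. The other wells had 29.4 and 125 CPM of Pigr and 17.7 and 59.4 CPM of Wfdc2. Irx5, an Iroquois homeobox factor, rose from 13.2 ± 3.3 to 45.3 ± 2.24 CPM. Over the 7 plates Pigr had 330 CPM in corpus replicate 1 and 14.1 CPM in pylorus replicate 1, and a log2 difference of 0.20 ± 0.94.

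Products of other cells were part of the 38. Atp4b, a proton pump subunit, had 950 ± 439 CPM in the corpus and 193 ± 42 CPM in the pylorus plates and Atp4a 158 ± 47.2 and 49.6 ± 10.7 CPM, with 2567 and 971 CPM of Atp4b in the other wells of the same plates. The rule capped these genes in chief wells. Ghrl, ghrelin, rose from 445 ± 218 to 1672 ± 118 CPM, with 805 and 3659 CPM in the other wells, and Sst, somatostatin, fell from 357 ± 354 to 32.6 ± 41.3 CPM, with 762 and 106 CPM. The means of the other wells lay in the same order as those of the chief wells for these genes, and the part of transcripts from other cells was not tested.

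The region difference itself differed between chief and other wells for 0 of 10151 genes over all plates (0%, limma, 306 at an unadjusted p under 0.05) and for 27 of 11247 (0.240%) in the 4 similar plates, of which 6 were also among the 38. Gif and Atp4b, on which the rule set limits in chief wells alone, are 2 of the 27, and their calls are no evidence. Cdkn1c, a cell cycle inhibitor, fell in chief wells from 232 ± 54.6 to 76.9 ± 0.82 CPM while the other wells had 21.8 and 23 CPM (adjusted p of the interaction 0.0095, limma). Over the 7 plates it had 205 to 893 CPM in corpus plates and 880 CPM in pylorus replicate 1, so the ranges overlapped. Furin rose from 3378 ± 1094 to 5981 ± 386 CPM, with 251 and 822 CPM in the other wells (adjusted p of the interaction 0.0415, limma). Tff2, a trefoil peptide, rose from 1691 ± 161 to 2959 ± 123 CPM, with 5701 and 7257 CPM in the other wells (0.0176, limma). Over the 7 plates both overlapped. Furin, without TMM scaling, had 665 to 3912 CPM in corpus and 3777 to 6055 CPM in pylorus plates. The median chief well had 263 to 6355 CPM of Tff2 in corpus and 505 to 2186 CPM in pylorus plates. Cym and Dcn, a stromal proteoglycan, were 2 more, beside Atp4b.

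Of 35 ER genes 22 were higher in both pylorus than in both corpus plates and 1 lower, where 18.4% of all genes were higher and 19.1% lower in that way, and 1, Hspa5, passed, from 1072 ± 44.6 to 1649 ± 183 CPM (adjusted p = 0.0496, limma). The 8 mitochondrially encoded genes were all lower, 0 of them passing. Over the 7 plates Hspa5 had 913 to 1310 CPM in corpus and 1307, 1612 and 1883 CPM in pylorus plates, which overlapped.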

How the data were processed

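For each plate the authors deposited raw UMI counts, genes in rows and wells in columns per the file headers; the build was mm9 per the submitters' processing notes, while aligner and counter are not given in the sources at hand. The tables held 18907 features besides 81 spike-in RNAs, which were left out of totals. Wells with at least 1000 UMIs were kept, with no doublet caller, since a sorter fills the wells. Members, lists and tests were chosen with earlier results of these data known.

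Each plate was 1 replicate, 4 corpus and 3 pylorus. Chief against other wells and the Muc6 and A4gnt scale were described in CPM, as log2 of CPM + 2, without a test. Region and interaction were fitted in limma 3.58.1 (R 4.3.3, mean trend) on log2 of TMM-scaled CPM + 2 of summed wells, with a minimum of 10 counts in as many plates as the smaller region and 15 in total, and a threshold of 0.05 after adjustment. A count model had been planned for both; tab-separated tables with a comma extension could not be read by the check such a model requires, and limma had been named as its substitute for the region only. Shares were compared by exact permutation over plates, with a statistic settled after the first shares were seen. Depth was equalised by 1 random draw of 5000 UMIs a well. Collisions were corrected from the share of the 4096 UMI sequences seen. The region fits were tested on simulated counts with 1 dispersion for all genes, 0.0549 for the 7 plates and 0.01 for the 4 similar plates. The value of 0.01 was the lowest the simulation allowed and not an estimate, so recovery over the 4 similar plates depends on it. The fit over 7 plates recovered 26% of 2-fold and 81% of 4-fold changes, so many 2-fold differences would be missed. The fit over the 4 similar plates recovered 50% and 90%.

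Named genes were the 7 chief markers, Muc6 and A4gnt, the 15 leading genes at 100 CPM or more that were higher in every plate, the 5 smallest p in each direction at 32 CPM or more (10 where enough passed), and 8 genes in each direction of the scale at 100 CPM or more. Lists gave up to 4 further names. Other genes were named after their values were seen.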

Additional observations from a re-analysis of the deposited data

Results flagged for a closer look

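In 20 sets of values over the 4 corpus plates, 3 had a plate far from the others by Dixon's test, where chance gives about 1 in 20. Muc6 in the chief wells of corpus replicate 1 had 988 TMM-scaled CPM against 137 to 257 CPM in the other corpus plates, and the same library held the Gast transcripts. In corpus replicate 2 Pdia2 had 3104 CPM against 696 to 1029 CPM, and Pnliprp2 had 1512 CPM against 891 to 986 CPM. Pylorus replicate 1, which the results place beside those 2 plates, had 3553 and 1663 CPM of Pdia2 and Pnliprp2.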

How the results depend on the processing

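The 0 genes between regions stayed 0 in 19 of 21 other settings and became 38 in the 4 similar plates alone and 1, Cym, without pylorus replicate 1, so leaving out 1 plate gave 0 to 1; the interaction gave 0 in 11 of 13, 27 in the 4 similar plates and 1 without pylorus replicate 1 (range 0 to 1). The deviations of same-numbered plates had correlations of 0.26, -0.20 and 0.24. Positive values followed the similarity of plates: corpus replicates 1 and 2 with pylorus replicate 1, and corpus replicates 3 and 4 with pylorus replicates 2 and 3. The correlations therefore cannot tell whether same-numbered plates share an animal. With the replicate block over replicates 1 to 3, 0 genes passed for both (233 and 294 at an unadjusted p under 0.05; 178 for the region without the block). Thinning to 1000 UMIs left 367 genes to test. The share of chief wells with Muc6 or A4gnt was lower in the pylorus in all 18 other settings and had a p under 0.05 in 2 of them: -26.2 points with Gif at 0.1% and -17.7 points with all UMIs (exact permutation, p = 0.0286 each, adjusted over the 2 shares 0.0571, so neither passed). Leaving out 1 plate gave -36.8 to -22.5 points (exact permutation, p 0.0667 to 0.2), a second draw -21.6 points (p = 0.143) and collision correction -20.8. In all, 3 random draws were looked at; the first was exploratory and not kept, and the regions did not overlap in it. The share of chief wells itself had a p under 0.05 in 0 of 13. For both shares, settings with fewer plates could not give an exact permutation p under 0.05. The smallest possible was 0.05 without 1 corpus plate and 0.0667 without 1 pylorus plate. It was 0.167 in the 4 similar plates and 0.333 in the other 3. Bpifb1, Cym, Pitx1, Amotl1, Aqp4, Itpr2 and Muc6 passed in the 4 similar plates. The causes were not tested. Added after seeing the data were the pseudocount of 0.5, voom weights, plate set as a term, wells without mucous transcripts, the other 3 plates alone, the second draw, the averages over draws and the scale without corpus replicate 1. DESeq2's Wald test was not run. Depth limits genes in few cells, and the UMI ceiling limits Pgc, Clps and Pla2g1b.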
